A study of Mus musculus with 18 samples.

Results

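The genes described here encode the lysosome and the autophagy machinery that feeds it. They were chosen by symbol from a fixed list of 37 names, each of which matched 1 gene among the 55183 genes listed for the cells and 1 among the 19464 listed for the brains. By role they were 16 hydrolases of the lysosomal lumen, 2 secreted or luminal activator proteins (Psap and Grn), 6 lysosomal membrane proteins, 4 components of the vacuolar proton pump (the V-ATPase), 2 transcription factors (Tfeb and Tfe3) and 7 autophagy genes.

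All values are transcript levels from RNA sequencing of 18 mouse libraries, 3 in each of 6 groups. PTCP53 304 cells, a line labelled Sonic hedgehog (SHH) medulloblastoma with the genotype Ptch1+/-; Trp53-/-, were given CT-179, which inhibits OLIG2 (a transcription factor of the oligodendrocyte lineage), or vehicle, and were harvested at 144 h (culture day 6) or 24 h (culture day 1). Whole brains came from mice labelled Ptch1+/-; IR that received CT-179 or vehicle for 12 days, between postnatal day 3 and postnatal day 15. The letters IR are not explained in the labels. Neither the line nor the mice had a counterpart without the Ptch1 change, and the cells of a whole brain were not separated. Nothing in the labels ties replicates to separate cultures or animals, and p-values therefore reflect spread among these libraries, which for the cells could be technical. Xist, transcribed from an inactive X chromosome, was at 0.0803, 12.4 and 0.0192 FPKM in CT-179 brains and at 20.6, 25.1 and 0.239 FPKM in vehicle brains, so the brain libraries of a group did not all come from 1 animal and the groups differed in this mix. Of the 37 genes, 4 lie on the X chromosome (Tfe3, Lamp2, Atp6ap1 and Gla), and the part of Xist status in the brain values was not tested.

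Lysosomes are acid compartments in which hydrolases break down protein, lipid, glycan and glycogen. The V-ATPase pumps in the protons that these enzymes need, and heavily glycosylated membrane proteins line the compartment. Autophagy encloses cytoplasm in a double membrane decorated with LC3 and GABARAP proteins and delivers it to lysosomes. TFEB and TFE3 are related transcription factors known to bind a CACGTG-centred motif in front of many lysosomal genes, and their activity is set mainly by their move between cytoplasm and nucleus, which transcript levels do not show.

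Promoters are shown for 4 of the genes because they carry that motif and because these genes differed in how they changed in culture. RefSeq windows of 300 bases on GRCm38.p6, from 250 bases before to 50 bases after an annotated start, were present for 33 of the 37 genes (not for Ctsb, Atp6v1h, Becn1 and Map1lc3a). The motif TCACGTGA, which reads the same on both strands and contains CACGTG, was found in 7 of the 33 genes (21.2%), namely Atp6v0d1, Atp6v1a, Cln3, Ctsa, Ctsd, Gla and Mcoln1. Over all genes with a window it was found in 1.12%, and in 0.974% of all 32851 windows. The core CACGTG was found in 14 of the 33 genes (42.4%), against 8.09% of all genes and 7.15% of all windows. The windows lie at chr7:126583187-126583486 for Cln3, chr7:142387778-142388077 for Ctsd, chrX:134600956-134601255 for Gla and chr13:64370471-64370770 for Ctsl, all on the minus strand. Each is written 5′ to 3′, with TCACGTGA in capitals for the first 3 genes and CACGTG in capitals for Ctsl.
Cln3: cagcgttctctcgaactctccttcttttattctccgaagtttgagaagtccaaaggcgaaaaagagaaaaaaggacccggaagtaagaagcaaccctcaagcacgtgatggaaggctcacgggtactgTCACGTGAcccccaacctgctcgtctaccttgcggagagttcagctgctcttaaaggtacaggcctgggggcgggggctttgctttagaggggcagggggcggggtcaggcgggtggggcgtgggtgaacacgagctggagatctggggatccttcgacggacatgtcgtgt
Ctsd: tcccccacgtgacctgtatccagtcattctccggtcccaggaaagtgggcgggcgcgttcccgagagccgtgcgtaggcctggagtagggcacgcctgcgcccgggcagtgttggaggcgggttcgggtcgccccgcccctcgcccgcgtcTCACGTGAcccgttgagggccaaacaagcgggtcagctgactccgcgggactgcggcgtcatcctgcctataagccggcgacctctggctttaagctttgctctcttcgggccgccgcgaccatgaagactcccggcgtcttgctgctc
Gla: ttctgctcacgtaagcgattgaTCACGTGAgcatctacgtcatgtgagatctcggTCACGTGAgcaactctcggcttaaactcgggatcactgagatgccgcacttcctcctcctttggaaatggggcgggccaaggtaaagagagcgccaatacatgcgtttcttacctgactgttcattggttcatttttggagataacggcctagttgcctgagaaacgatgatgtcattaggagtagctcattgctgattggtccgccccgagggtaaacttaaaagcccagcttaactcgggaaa
Ctsl: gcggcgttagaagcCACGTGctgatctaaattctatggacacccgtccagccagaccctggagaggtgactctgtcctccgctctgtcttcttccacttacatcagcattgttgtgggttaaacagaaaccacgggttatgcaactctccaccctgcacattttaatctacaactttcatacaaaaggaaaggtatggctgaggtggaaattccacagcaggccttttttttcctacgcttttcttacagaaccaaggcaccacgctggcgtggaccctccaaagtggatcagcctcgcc
A match is a run of letters and not a measured binding site.

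Levels are FPKM, fragments scaled to gene length and to library size, which allows comparison between genes of the same library. All 37 genes were detected in every library. In vehicle cells at 144 h the mean level ran between 2.14 FPKM for Sgsh and 448 FPKM for Psap, with a median over the genes of 49.6 FPKM, and the 4 highest were Psap, Lamp1, Cd63 and Ctsd. The same 4 led in vehicle cells at 24 h, where the median was 20.7 FPKM and the highest mean 186 FPKM, again of Psap. In the brains Psap led with 819 FPKM in CT-179 brains and 736 FPKM in vehicle brains, followed by Lamp1 with 317 FPKM in CT-179 brains and 289 FPKM in vehicle brains. Neighbours in the order of levels often could not be separated, since the libraries of 10 of the 36 adjacent pairs overlapped in vehicle cells at 144 h and those of 21 of 36 in vehicle brains.

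Of the cell libraries, CT-179 replicate 2 at 144 h stood apart. Its log2 values correlated at 0.941 and 0.943 with the other libraries of its group, whereas all other pairs of cell libraries within a group correlated at 0.996 or more. Its deviation from its group fell with the exonic length of a gene, with a Spearman's rho of -0.69 over protein-coding genes and -0.32 over the 37 genes. For the 37 genes, counts of genes called, and values that leaving it out moved by over 1.5 times, are therefore given with and without it. Cell results for other genes of the pathway come from the fit of all 12 libraries only. Among the brains, vehicle replicate 2 had 15416 FPKM of Lars2, against 71.7 to 83.2 FPKM in the other brain libraries, and its Tpm3-rs7 level of 16.7 FPKM was like the 16.4 to 21.0 FPKM of the CT-179 brains and unlike the 0.22 and 0.30 FPKM of the other vehicle brains. The word vehicle also stands in the titles of the CT-179 brains, so each direction in brain rests on the treatment label.

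**Figure D1:**
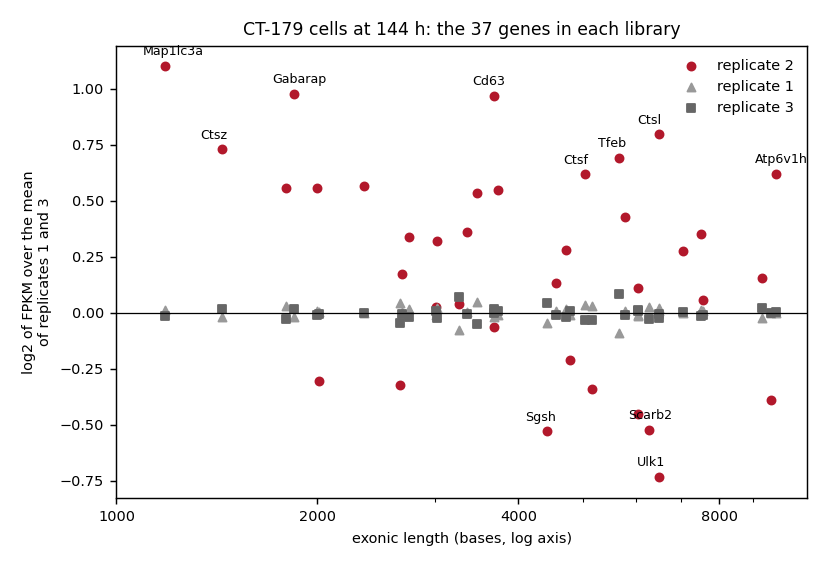
For each of the 37 genes, the log2 ratio of its FPKM in a CT-179 library at 144 h to the mean of replicates 1 and 3 of that group (y axis) is plotted against the gene's exonic length in bases (x axis, log scale). Replicate 2 spread widely, with Map1lc3a highest and Ulk1 lowest, while replicates 1 and 3 lay close to 0.

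The plot of single libraries by exonic length shows how far replicate 2 lay from its group. Its ratio to the mean of replicates 1 and 3 was between 0.601 for Ulk1 and 2.15 for Map1lc3a, with a median of 1.22 over the 37 genes. It exceeded 1.2 for 20 of them.

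The label of the cells was set against marker genes. Gli1 and Ptch1, targets of SHH signalling, were present, Gli1 at 9.38 to 12.3 FPKM in CT-179 cells and 19.4 to 21.1 FPKM in vehicle cells at 144 h, and at 1.84 to 1.98 FPKM in CT-179 cells and 2.34 to 2.599 FPKM in vehicle cells at 24 h. Atoh1, which marks granule neuron progenitors, reached 0.0254 FPKM at most, and Barhl1, another marker of that lineage, reached 0.0115 FPKM at most. Of the 9 SHH and granule cell markers listed, 7, 5 and 6 reached 1 FPKM in CT-179 replicates 1, 2 and 3 at 144 h. It was 7 in each vehicle library at 144 h, and 4 or 5 in each cell library at 24 h. In each cell library 2 of the 9 were below 0.1 FPKM. The 9 markers summed to 51.0 to 77.8 FPKM in CT-179 cells and 88.5 to 90.2 FPKM in vehicle cells at 144 h. Microglia, a cell type rich in lysosomes, left almost no trace in the culture: 10 microglial markers summed to at most 0.273 FPKM in any cell library.

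Time in culture moved most of these genes. Between 24 h and 144 h, the transcripts of most lysosome and autophagy genes rose, in CT-179 cells as in vehicle cells. In CT-179 cells 30 of the 37 genes were higher at 144 h than at 24 h, 3 were lower and 4 did not pass, and in vehicle cells 29 were higher, 3 were lower and 5 did not pass (limma on log2(FPKM + 1), Benjamini-Hochberg adjusted p below 0.05 over 12510 genes). Time moved much of the transcriptome: 33.2% of all genes tested were higher and 32.1% lower in CT-179 cells, and 34.1% were higher and 32.4% lower in vehicle cells. The median log2 fold change of the 37 genes was 1.13 in CT-179 cells and 1.11 in vehicle cells, beside -0.02 in CT-179 cells and 0.01 in vehicle cells over all genes tested. An unadjusted p below 0.05 was reached by 34 genes in CT-179 cells, beside 68.3% of all genes, and by 32 in vehicle cells, beside 69.3%. In CT-179 cells the 144 h libraries were all above the 24 h libraries for 31 genes and all below for 3, beside 33.4% and 34.1% of all genes, and in vehicle cells for 31 and 4, beside 44.6% and 42.9%. Without CT-179 replicate 2 at 144 h, 32 genes were higher and 4 lower in CT-179 cells, beside 43.9% and 41.7% of all genes (85.6% in either direction), and 31 were higher and 4 lower in vehicle cells, beside 44.2% and 43.4% (87.7% in either direction). The direction was shared by both treatments for 28 genes that rose and for the 3 that fell. Mean FPKM at least doubled for 23 of the 37 genes in CT-179 cells and for 22 in vehicle cells. Neither shared directions nor doublings were counted over all genes, so these counts have no background to be set against.

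**Figure D2:**
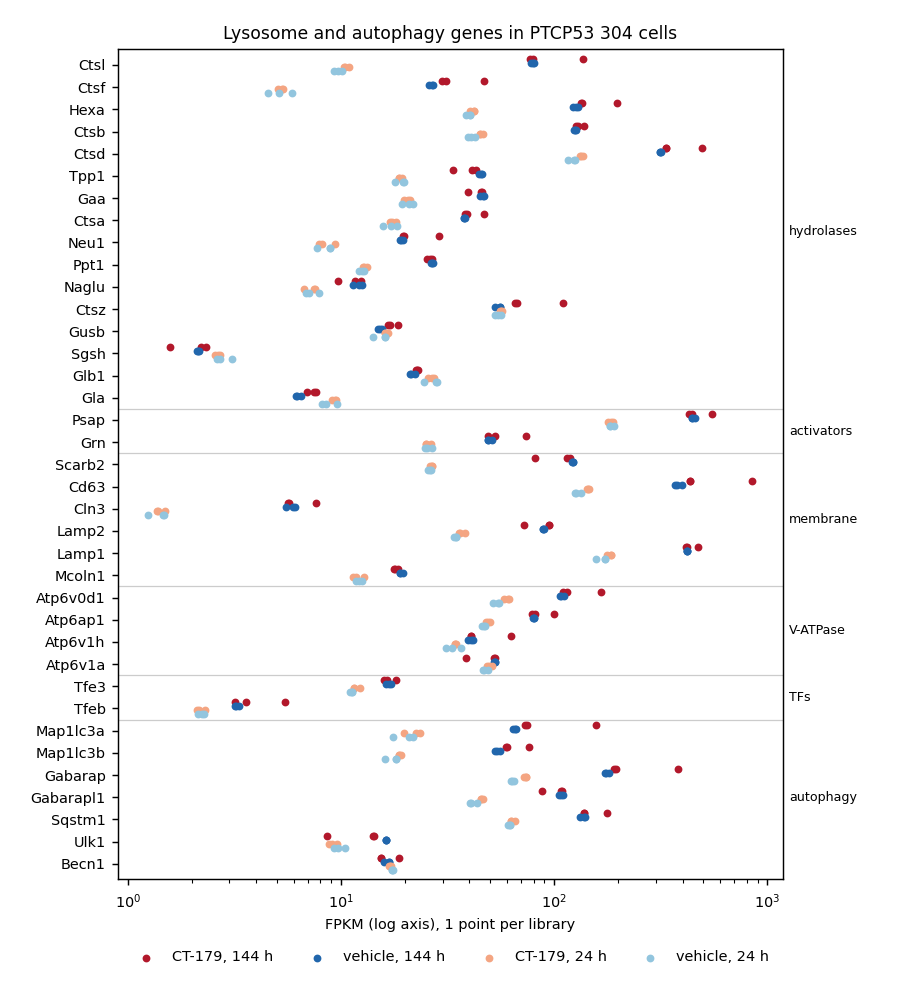
FPKM (x axis, log scale) of each of the 37 genes in the 12 cell libraries, 1 point per library, with the genes grouped by role. Most genes had their 144 h libraries to the right of their 24 h libraries, and for Ctsl vehicle cells stood at 78.2 to 80.7 FPKM at 144 h, against 9.27 to 10.1 FPKM at 24 h.

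The hydrolases included Ctsl, with the highest fold change of the 37 genes, and the 3 genes that fell. Ctsl, a cysteine protease, had 79.6, 136 and 77.3 FPKM in CT-179 cells at 144 h, against 10.9, 10.4 and 10.4 FPKM in CT-179 cells at 24 h. In vehicle cells it had 78.2, 79.3 and 80.7 FPKM at 144 h, against 10.1, 9.27 and 9.67 FPKM at 24 h. The times were far apart in every library, by 9.28 times in CT-179 cells (log2 fold change 3.05 ± 0.17 SE, adjusted p = 6.89e-08) and 8.21 times in vehicle cells (2.91 ± 0.17, adjusted p = 9.26e-08). CT-179 replicate 2 held the value of 136 FPKM, and without it the log2 fold change in CT-179 cells was 2.78. An antisense gene, Gm47123, overlaps 26.9% of the exonic length of Ctsl.

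Ctsf, a related cysteine protease, had 31.2, 46.8 and 29.7 FPKM in CT-179 cells at 144 h, against 5.26, 5.37 and 5.04 FPKM at 24 h. In vehicle cells it had 26.8, 27.0 and 25.8 FPKM at 144 h, against 5.86, 5.14 and 4.53 FPKM at 24 h. The rise was 6.87 times in CT-179 cells and 5.13 times in vehicle cells. Hexa, a subunit of the beta-hexosaminidase that degrades GM2 ganglioside, had 135, 197 and 133 FPKM in CT-179 cells at 144 h, against 41.8, 42.2 and 40.1 FPKM at 24 h. In vehicle cells Hexa had 129, 123 and 126 FPKM at 144 h, against 40.2, 40.3 and 38.8 FPKM at 24 h, a rise of 3.17 times.

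Ctsb, another cysteine protease, rose 2.89 times in CT-179 cells and 3.05 times in vehicle cells, where its 144 h libraries held 126, 125 and 123 FPKM, against 40.9, 42.6 and 39.3 FPKM at 24 h. Ctsd, the main aspartyl protease of the lysosome, had 335, 496 and 335 FPKM in CT-179 cells at 144 h, against 133, 137 and 132 FPKM at 24 h. In vehicle cells Ctsd had 318, 312 and 312 FPKM at 144 h, against 126, 124 and 117 FPKM at 24 h. Its log2 fold change was 1.503 ± 0.13 (SE) in CT-179 cells and 1.36 ± 0.13 in vehicle cells, and Gm49369 on the same strand shares 34.4% of its exonic bases. Tpp1 (a tripeptidyl peptidase), Gaa (the acid glucosidase that degrades glycogen), Ctsa (a carboxypeptidase that stabilises Neu1 and Glb1), Neu1 (a sialidase), Ppt1 (a thioesterase that removes palmitate from proteins) and Naglu (an enzyme of heparan sulfate breakdown) rose as well, with log2 fold changes of 0.56 to 1.31 in CT-179 cells and 0.66 to 1.202 in vehicle cells.

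Gla, Glb1 and Sgsh went the other way. Gla, which removes terminal galactose from glycolipids, had 6.91, 7.49 and 7.66 FPKM in CT-179 cells at 144 h, against 9.47, 9.06 and 9.34 FPKM at 24 h, and 6.24, 6.48 and 6.17 FPKM in vehicle cells at 144 h, against 8.14, 8.56 and 9.55 FPKM at 24 h. Neither pair of groups overlapped, and the log2 fold change was -0.30 ± 0.07 (SE) in CT-179 cells and -0.42 ± 0.07 in vehicle cells, with adjusted p of 0.00219 and 0.000242. Glb1, the beta-galactosidase, fell by 0.22 in CT-179 cells and 0.30 in vehicle cells on the log2 scale, and its call was lost after scaling to TPM, which fixes the summed expression of each library, with adjusted p = 0.0511 in CT-179 cells and 0.101 in vehicle cells. Sgsh, a sulfatase of heparan sulfate breakdown and the lowest of the hydrolases, fell by 0.27 in CT-179 cells and 0.28 in vehicle cells, a call that was lost when single libraries were left out, such as CT-179 replicate 1 at 24 h (adjusted p = 0.0616) or vehicle replicate 1 at 144 h (adjusted p = 0.0525). Sgsh fell by 0.16 in CT-179 cells without CT-179 replicate 2 at 144 h. The exons of Sgsh overlap those of Card14 over 21.6% of their length on the other strand. Gusb, the beta-glucuronidase, did not pass in either treatment, with log2 fold changes of 0.09 in CT-179 cells (0.05 without replicate 2 at 144 h) and -0.02 in vehicle cells.

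Ctsz, a cysteine carboxypeptidase, passed in CT-179 cells and not in vehicle cells. It had 65.4, 110 and 67.2 FPKM in CT-179 cells at 144 h, against 56.5, 55.8 and 56.8 FPKM in CT-179 cells at 24 h, and 55.6, 55.6 and 52.6 FPKM in vehicle cells at 144 h, against 56.6, 54.7 and 53.0 FPKM in vehicle cells at 24 h. The CT-179 libraries did not overlap between times (log2 fold change 0.47 ± 0.16 SE, adjusted p = 0.0229), while the vehicle libraries did (0.00 ± 0.16, adjusted p = 0.983). Without CT-179 replicate 2 at 144 h, which held the 110 FPKM, the log2 fold change in CT-179 cells was 0.23 (adjusted p = 4.0e-05). With all 144 h libraries, the call in CT-179 cells was lost when any 1 of the CT-179 libraries at 24 h was left out, with adjusted p of 0.0541 without replicate 1, 0.0577 without replicate 2 and 0.0527 without replicate 3. The test of the difference between the treatments did not pass for Ctsz with all 12 libraries (0.48 ± 0.22, adjusted p = 0.693).

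Both activators rose. Psap, the precursor of the saposins that present lipids to hydrolases, and Grn, the progranulin precursor, had log2 fold changes of 1.35 and 1.14 in CT-179 cells and 1.27 and 0.93 in vehicle cells. Psap had 441, 549 and 429 FPKM in CT-179 cells at 144 h, against 184, 189 and 179 FPKM at 24 h.

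All 6 membrane proteins rose in both treatments. Lamp1, an abundant coat protein of the lysosomal membrane, had 418, 471 and 417 FPKM in CT-179 cells at 144 h, against 184, 184 and 177 FPKM at 24 h, and 420, 419 and 417 FPKM in vehicle cells at 144 h, against 173, 173 and 158 FPKM at 24 h. The log2 fold change of Lamp1 was 1.26 ± 0.07 (SE) in CT-179 cells and 1.31 ± 0.07 in vehicle cells. Scarb2, the receptor that carries glucocerebrosidase to lysosomes, was the steepest of the 6 in vehicle cells. It had 122, 122 and 121 FPKM in vehicle cells at 144 h, against 26.0, 26.5 and 25.6 FPKM at 24 h, a rise of 4.69 times. In CT-179 cells Scarb2 had 119, 81.2 and 115 FPKM at 144 h, against 26.7, 26.3 and 26.8 FPKM at 24 h, with replicate 2 the lowest of the 144 h libraries.

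Cd63, a tetraspanin of late endosomes and lysosomes, had 435, 850 and 433 FPKM in CT-179 cells at 144 h, against 144, 146 and 142 FPKM at 24 h. In vehicle cells Cd63 had 396, 378 and 369 FPKM at 144 h, against 125, 127 and 134 FPKM at 24 h. The value of 850 FPKM came from CT-179 replicate 2, and the log2 fold change in CT-179 cells was 1.91 with it and 1.58 without it. A pseudogene, Cd63-ps, is annotated, and how reads matching both were counted is not given. Cln3, a membrane protein mutated in juvenile Batten disease, rose 4.45 times in CT-179 cells and 4.19 times in vehicle cells. Lamp2, whose splice forms include the receptor of chaperone-mediated autophagy, had log2 fold changes of 1.21 in CT-179 cells and 1.34 in vehicle cells. Mcoln1, a cation channel that releases lysosomal calcium, rose less, by 0.55 in CT-179 cells and 0.62 in vehicle cells on the log2 scale.

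Of the 4 V-ATPase genes, 3 rose in CT-179 cells and 2 in vehicle cells. Atp6v0d1, of the membrane sector, and Atp6ap1, an accessory subunit, rose in both treatments, with log2 fold changes of 1.08 and 0.80 in CT-179 cells and 1.00 and 0.76 in vehicle cells. Atp6v1a, the catalytic subunit, did not pass, with -0.06 in CT-179 cells and 0.14 in vehicle cells, but was called higher in both without CT-179 replicate 2 at 144 h (0.08 in CT-179 cells, adjusted p = 0.0201, and 0.14 in vehicle cells, adjusted p = 0.00033). Atp6v1h, a regulatory subunit, passed in CT-179 cells (0.44, adjusted p = 0.0181) and not in vehicle cells (0.26, adjusted p = 0.125). Its call in CT-179 cells was lost under a length correction (adjusted p = 0.0716) and in a fit of the 6 CT-179 libraries alone (adjusted p = 0.0870). Without CT-179 replicate 2 at 144 h, it passed in both, with 0.24 in CT-179 cells and 0.26 in vehicle cells.

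Of the 7 autophagy genes, 5 rose in CT-179 cells and 6 in vehicle cells, among them all 4 of the LC3 and GABARAP family. Map1lc3b, the LC3 form most used to follow autophagosomes, had 60.2, 76.3 and 59.2 FPKM in CT-179 cells at 144 h, against 18.7, 18.8 and 19.1 FPKM at 24 h. In vehicle cells Map1lc3b had 55.7, 54.0 and 52.9 FPKM at 144 h, against 18.04, 18.04 and 16.1 FPKM at 24 h. Its rise was 3.46 times in CT-179 cells (log2 fold change 1.73 ± 0.09 SE) and 3.12 times in vehicle cells (1.59 ± 0.09). Map1lc3a, its close relative, rose 3.26 times in vehicle cells, where its libraries held 66.4, 65.3 and 64.2 FPKM at 144 h, against 21.9, 20.8 and 17.5 FPKM at 24 h. In CT-179 cells Map1lc3a had 74.2, 158 and 72.7 FPKM at 144 h, against 19.7, 23.4 and 22.4 FPKM at 24 h. Gabarap and Gabarapl1 rose 3.46 and 2.23 times in CT-179 cells and 2.78 and 2.599 times in vehicle cells.

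Sqstm1, the receptor p62 that links ubiquitinated cargo to LC3, had 139, 178 and 138 FPKM in CT-179 cells at 144 h, against 63.0, 65.6 and 62.9 FPKM at 24 h, and 138, 132 and 139 FPKM in vehicle cells at 144 h, against 62.2, 62.3 and 60.5 FPKM at 24 h. Its log2 fold change was 1.22 ± 0.09 (SE) in CT-179 cells and 1.13 ± 0.09 in vehicle cells. Ulk1, the kinase that starts autophagy, rose in vehicle cells (0.68, adjusted p = 0.00238). In CT-179 cells the log2 fold change of Ulk1 was 0.36 (adjusted p = 0.0555), and without replicate 2 at 144 h Ulk1 passed there too, at 0.59. Becn1, part of the lipid kinase complex that nucleates autophagosomes, did not pass in either treatment, at -0.04 in CT-179 cells and -0.07 in vehicle cells. Without CT-179 replicate 2 at 144 h it was called lower in both, at -0.13 in CT-179 cells (adjusted p = 0.0020) and -0.07 in vehicle cells (adjusted p = 0.0251). Its exons overlap those of Cntd1 on the other strand over 43.9% of their length.

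Both transcription factors rose, with smaller fold changes than the median of the 37 genes. Tfe3 had 15.9, 18.04 and 16.4 FPKM in CT-179 cells at 144 h, against 11.5, 11.6 and 12.2 FPKM at 24 h, and 16.9, 17.1 and 16.2 FPKM in vehicle cells at 144 h, against 11.3, 11.2 and 11.01 FPKM at 24 h. Its log2 fold change was 0.48 ± 0.06 (SE) in CT-179 cells and 0.54 ± 0.06 in vehicle cells. Tfeb had 3.19, 5.49 and 3.598 FPKM in CT-179 cells at 144 h, against 2.16, 2.11 and 2.32 FPKM at 24 h, and 3.32, 3.21 and 3.19 FPKM in vehicle cells at 144 h, against 2.24, 2.13 and 2.29 FPKM at 24 h. The times did not overlap, and the log2 fold change of Tfeb was 0.65 ± 0.13 in CT-179 cells (adjusted p = 0.00125) and 0.40 ± 0.13 in vehicle cells (adjusted p = 0.0205). In vehicle cells the call was lost without vehicle replicate 2 at 24 h (adjusted p = 0.059) and without vehicle replicate 1 at 144 h (adjusted p = 0.0566).

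**Figure D3:**
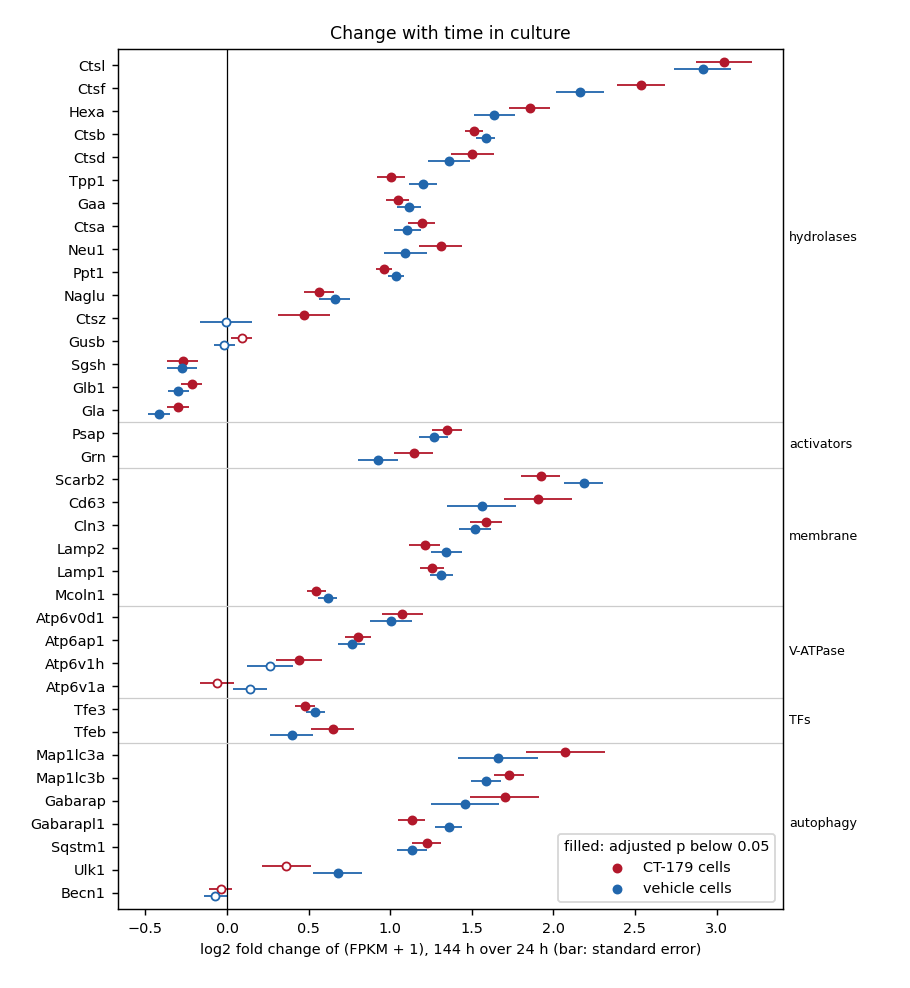
Log2 fold change of (FPKM + 1) at 144 h over 24 h (x axis) for each gene in CT-179 cells and in vehicle cells, with its standard error as a bar and filled points where the adjusted p was below 0.05. Most points lie right of 0 in both treatments, and Gla, Glb1 and Sgsh lie left of 0.

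The plot of change with time sets both treatments side by side. The log2 fold change in CT-179 cells minus that in vehicle cells lay between -0.31 and 0.48 for the 37 genes. Its median was 0.08, beside -0.03 over all genes tested. Without CT-179 replicate 2 at 144 h the median was -0.03, beside 0.0051 over all genes. Genes with and without a promoter match both rose. Of the 7 genes with TCACGTGA, 5 rose, Gla fell and Atp6v1a did not pass in either treatment, and their median log2 fold change was 1.08 in CT-179 cells and 1.00 in vehicle cells. For the 26 genes with a window and without that motif it was 1.14 in CT-179 cells and 1.12 in vehicle cells. Of the 14 genes with the core CACGTG, 10 rose in each treatment, among them Ctsl, which rose most, and Gla, Glb1 and Sgsh fell. Of the 19 genes with a window and without the core, 17 rose in each treatment and 0 fell. Becn1, called lower without CT-179 replicate 2 at 144 h, had no window.

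Other genes of the same pathway, 121 in all and 115 of them tested in cells, also mostly rose with time. In CT-179 cells 66 rose and 10 fell with time, beside 33.2% and 32.1% of all genes. In vehicle cells 70 rose and 6 fell, beside 34.1% and 32.4% of all genes. Median log2 fold changes were 0.47 in CT-179 cells and 0.42 in vehicle cells, beside -0.02 and 0.01 over all genes. Among 29 other hydrolases and activators tested, 24 rose in CT-179 cells and 23 in vehicle cells, and 2 fell in each. Naaa, which hydrolyses N-acylethanolamines, averaged 29.8 ± 6.53 FPKM in CT-179 cells at 144 h, against 0.584 ± 0.0315 FPKM at 24 h (SD, n = 3 each), and 33.3 ± 1.83 FPKM in vehicle cells at 144 h, against 0.531 ± 0.126 FPKM at 24 h. Gm2a, the activator that works with beta-hexosaminidase, averaged 30.1 ± 0.80 FPKM in vehicle cells at 144 h, against 7.33 ± 0.21 FPKM at 24 h. Of 14 other V-ATPase genes, 11 rose in CT-179 cells and 10 in vehicle cells, and none fell in either. Atp6v1g2, a stalk subunit isoform of neurons, and Atp6ap2, an accessory subunit, had log2 fold changes of 0.80 and 0.98 in CT-179 cells and 0.72 and 0.95 in vehicle cells.

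Of 16 other membrane genes, 8 rose and 2 fell in CT-179 cells, and 10 rose and 2 fell in vehicle cells. Slc17a5, the sialic acid exporter, and Ctns, the cystine exporter, had log2 fold changes of 1.68 and 0.89 in CT-179 cells and 1.70 and 1.04 in vehicle cells. Of 35 other autophagy genes, 14 rose and 4 fell in CT-179 cells, and 18 rose and 2 fell in vehicle cells. Wipi1, a reader of the phosphoinositide on forming autophagosomes, averaged 17.5 ± 0.89 FPKM in CT-179 cells at 144 h, against 3.67 ± 0.12 FPKM at 24 h, and Atg12, a ubiquitin-like protein of the conjugation machinery, had log2 fold changes of 0.97 in CT-179 cells and 1.013 in vehicle cells. Of 21 regulators of lysosome signalling, 9 rose in each treatment, and 2 fell in CT-179 cells and none in vehicle cells. Flcn and Rragd, both of the nutrient-sensing machinery on the lysosomal surface, were among those that rose. The autophagy and regulator lists had medians of 0.16 and 0.18 in CT-179 cells and 0.33 and 0.23 in vehicle cells. Of all genes, 33.2% were higher with time in CT-179 cells and 34.1% in vehicle cells.

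Marker genes of other cell states moved with time as well, and their part in these results was not tested. The summed FPKM of 8 astrocyte markers was 1062 to 1197 in CT-179 cells at 144 h, against 493 to 504 at 24 h, and 1076 to 1095 in vehicle cells at 144 h, against 460 to 492 at 24 h. That of 6 myelin markers was 55.1 to 72.1 in CT-179 cells at 144 h, against 6.85 to 7.38 at 24 h, and 54.4 to 57.2 in vehicle cells at 144 h, against 6.53 to 6.92 at 24 h. That of 9 SHH and granule cell markers was 51.0 to 77.8 in CT-179 cells at 144 h, against 181 to 183 at 24 h, and 88.5 to 90.2 in vehicle cells at 144 h, against 183 to 186 at 24 h. That of 8 neuron markers was 59.5 to 94.3 in CT-179 cells at 144 h, against 38.4 to 40.9 at 24 h, and 99.9 to 103 in vehicle cells at 144 h, against 40.9 to 42.4 at 24 h. That of 5 oligodendrocyte progenitor markers was 507 to 664 in CT-179 cells at 144 h, against 697 to 770 at 24 h, and 481 to 498 in vehicle cells at 144 h, against 649 to 735 at 24 h. Genes of a list did not all move with its sum. Gli1, of the SHH and granule cell list, was higher at 144 h than at 24 h in both treatments. Of the 6 myelin markers, 2 reached 1 FPKM in each 144 h cell library and 1 in each 24 h cell library. In each 144 h cell library 3 of the 6 were below 0.1 FPKM. Time in culture and time of harvest cannot be told apart in this design.

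How many of these genes were called between CT-179 and vehicle cells depended on 1 library, on library weights and, without that library, on the scaling. At 24 h, 0 of the 37 genes passed in the fit of all 12 libraries, beside 0.264% of all genes tested, and 1 (Ctsb, log2 fold change 0.15) had an unadjusted p below 0.05, beside 5.12% of all genes. Their median log2 fold change was 0.04, beside -0.01 over all genes, and single values lay between -0.09 and 0.21. The CT-179 libraries were all above the vehicle libraries for 13 of the 37 genes, beside 14.5% of all genes, and all below for Becn1 alone, beside 22.9% of all genes. After Ctsb, the smallest p belonged to Gabarapl1 (0.13 ± 0.08 SE), Lamp1 (0.11 ± 0.07) and Atp6v0d1 (0.16 ± 0.13), each with an adjusted p of 0.9997. The log2 fold change at 24 h was 0.14 for Ctsd, 0.11 for Map1lc3b, 0.05 for Sqstm1, 0.07 for Tfe3 and -0.01 for Tfeb. That of Sqstm1 turned negative under TPM scaling and that of Tfeb positive under median-of-ratios scaling.

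The 24 h fold changes were the same with and without CT-179 replicate 2 at 144 h, which entered them only through the shared estimate of the spread. Without that library, 9 genes passed as higher in CT-179 cells at 24 h and 0 as lower, beside 22.2% of all genes called in either direction (8.08% higher and 14.1% lower). These were Ctsb, Ctsd, Ctsl, Lamp1, Lamp2, Cd63, Atp6v0d1, Gabarap and Gabarapl1, with log2 fold changes of 0.08 to 0.21. Gabarap had 74.0, 73.9 and 72.5 FPKM in CT-179 cells at 24 h, against 64.6, 63.5 and 62.6 FPKM in vehicle cells. Ctsb had 45.1, 46.5 and 44.9 FPKM in CT-179 cells, against 40.9, 42.6 and 39.3 FPKM in vehicle cells. The groups did not overlap for either gene. Under TPM scaling without that library the split at 24 h was 5 higher and 2 lower, and under median-of-ratios scaling 19 higher and 0 lower, so the number of genes called depended on the scaling. Over all genes the split was 360 higher and 3416 lower of 14835 under TPM scaling. Under median-of-ratios scaling it was 2623 higher and 1067 lower of 12445.

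At 144 h, 0 of the 37 genes passed in the fit of all 12 libraries, beside 3.88% of all genes (0.512% higher and 3.37% lower), and 8 had an unadjusted p below 0.05, beside 29.2% of all genes. Their median log2 fold change was 0.10, beside -0.05 over all genes. The CT-179 libraries were all above the vehicle libraries for 13 genes, beside 19.1% of all genes, and all below for Tpp1, Scarb2, Mcoln1 and Ulk1, beside 27% of all genes. The smallest p belonged to Ctsz, with 65.4, 110 and 67.2 FPKM in CT-179 cells and 55.6, 55.6 and 52.6 FPKM in vehicle cells (log2 fold change 0.52 ± 0.16 SE, adjusted p = 0.103), followed by Gla (0.19 ± 0.07), Gusb (0.18 ± 0.06) and Map1lc3b (0.25 ± 0.09). The log2 fold change at 144 h was 0.28 for Ctsd, 0.24 for Tfeb, 0.14 for Sqstm1, 0.05 for Lamp1 and 0.01 for Tfe3. With that group's replicate 2 left out it was 0.09 for Ctsd, 0.05 for Tfeb, 0.02 for Sqstm1, -0.0040 for Lamp1 and -0.04 for Tfe3, and none of these passed. Under TPM scaling those of Gusb, Sqstm1, Lamp1 and Tfe3 were below 0.

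At this time the summed neuron, SHH and granule cell markers of every CT-179 library were below those of every vehicle library, and the progenitor markers above, and their part in the CT-179 effects was not tested. Without CT-179 replicate 2, 5 of the 37 genes passed as higher at 144 h and 2 as lower, beside 28.7% of all genes called in either direction (11.8% higher and 16.9% lower), and the median of the 37 genes was 0.03. Ctsz (0.28), Cd63 (0.19), Gla (0.18), Map1lc3b (0.14) and Gabarap (0.12) were higher on the log2 scale, and Ulk1 (-0.18) and Becn1 (-0.09) were lower. Ulk1 had 14.3 and 14.2 FPKM in the remaining CT-179 libraries, against 16.2, 16.3 and 16.3 FPKM in vehicle cells. Becn1 had 15.4 and 15.5 FPKM in those CT-179 libraries, against 15.9, 16.8 and 16.9 FPKM in vehicle cells. Cd63 and Gabarap passed at both times in this fit. Under TPM scaling without that library the split at 144 h was 2 higher and 6 lower, and under median-of-ratios scaling 13 higher and 1 lower. Over all genes the split was 657 higher and 3499 lower of 14835 under TPM scaling. Under median-of-ratios scaling it was 2777 higher and 1406 lower of 12445.

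The effects of CT-179 at 144 h and 24 h were compared by their difference. With all 12 libraries, 0 of the 37 genes passed, beside 0% of all genes, and 0 had an unadjusted p below 0.05, beside 4.59% of all genes. The smallest p belonged to Ctsz (0.48), Gabarapl1 (-0.23), Ctsf (0.38) and Tpp1 (-0.20), each with an adjusted p of 0.693. Without CT-179 replicate 2 at 144 h, the differences were -0.13 for Gabarapl1, 0.17 for Ctsf and -0.09 for Tpp1, none of which passed, and Ctsz passed (difference 0.24 ± 0.04 SE, adjusted p = 0.0258), beside 2.66% of all genes (1.2% higher and 1.46% lower). Of 115 other pathway genes tested with all 12 libraries, 3 were lower with CT-179 at 144 h, beside 3.37% of all genes. None was higher, beside 0.512% of all genes. One of the 3 was Flcn, which acts on the lysosomal surface. Flcn averaged 14.9 ± 1.22 FPKM in CT-179 cells and 18.5 ± 0.61 FPKM in vehicle cells (adjusted p = 0.038). The others were Atg16l1, which places LC3 on membranes, at 5.51 ± 0.07 FPKM in CT-179 cells and 6.99 ± 0.11 FPKM in vehicle cells (adjusted p = 0.0098), and Cd68, at 1.14 ± 0.17 FPKM in CT-179 cells and 1.80 ± 0.11 FPKM in vehicle cells (adjusted p = 0.0138). Cd68 was also the 1 of the 115 that was lower at 24 h, beside 0.264% of all genes. At 24 h Cd68 averaged 0.667 ± 0.0736 FPKM in CT-179 cells and 1.23 ± 0.0471 FPKM in vehicle cells (SD, n = 3 each, adjusted p = 0.0435).

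**Figure D4:**
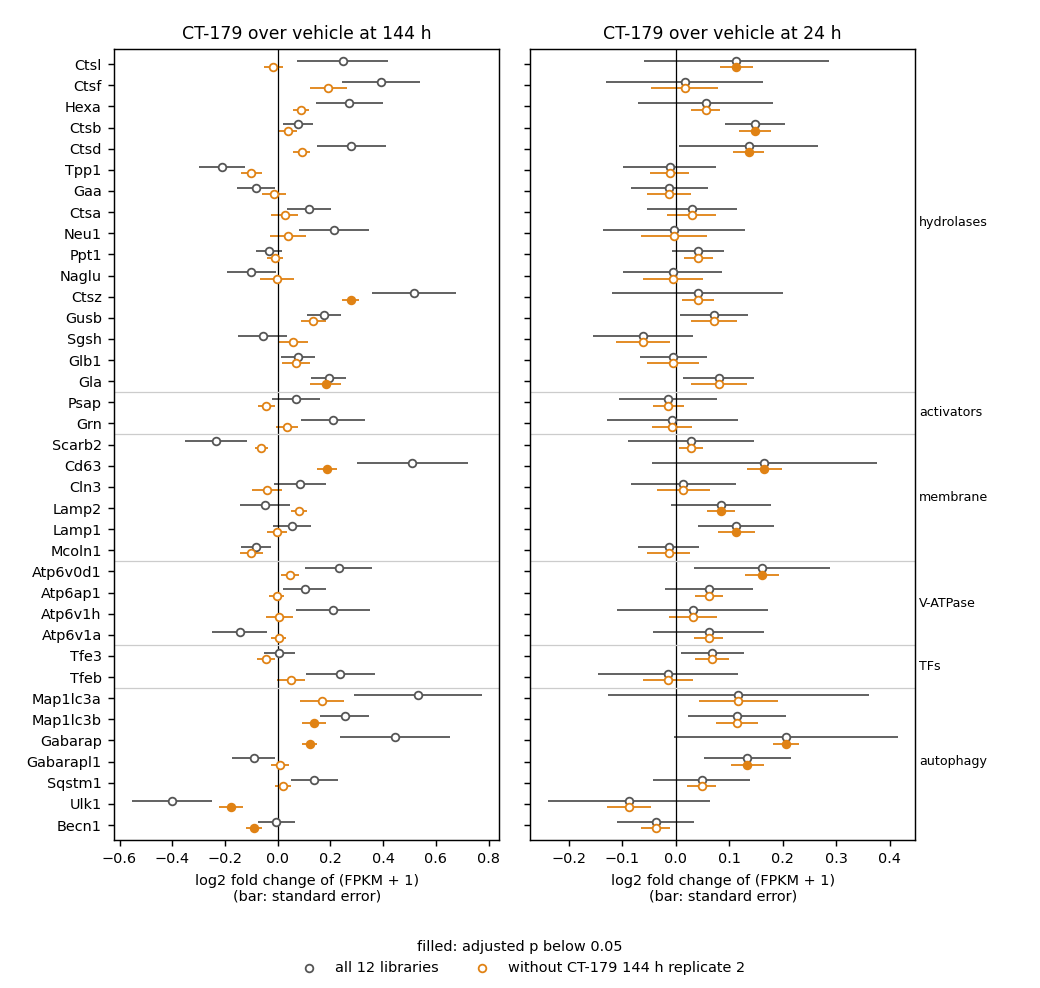
Log2 fold change of (FPKM + 1) for CT-179 over vehicle (x axis) at 144 h and at 24 h for each gene, with its standard error as a bar, in the fit of all 12 cell libraries and in the fit without CT-179 replicate 2 at 144 h. Filled points, where the adjusted p was below 0.05, occur in the fit without that library, for 7 genes at 144 h and 9 genes at 24 h.

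The plot of CT-179 effects in cells shows narrower bars without that library. Both sets of effects also followed gene length. The Spearman correlation of log2 fold change with exonic length, as a description over genes that share libraries, was -0.69 over 11361 protein-coding genes and -0.38 over the 37 genes at 144 h, and -0.52 over all and -0.29 over the 37 genes at 24 h. For time it was -0.13 over all genes in CT-179 cells and 0.05 in vehicle cells. The correlations at 144 h and for time in CT-179 cells include CT-179 replicate 2 at 144 h. That library's own deviation fell with length (-0.69 over protein-coding genes), and these correlations were not computed without it. After a length correction and without CT-179 replicate 2, 6 of the 37 genes passed as higher with CT-179 at 144 h and 13 at 24 h, and 0 as lower at either time. Of all 12454 genes in that setting, 1593 were higher and 1348 lower at 144 h (23.6% called). At 24 h, 1143 were higher and 857 lower (16.1% called).

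In whole brain, fewer cells of a type and less RNA per cell cannot be told apart. No gene of the 37 passed between CT-179 and vehicle brains, beside 0% of the 13422 genes tested, and 1 had an unadjusted p below 0.05, beside 3.65% of all genes. The median log2 fold change was 0.08, beside 0.02 over all genes, with 32 values above 0 and 5 below. The CT-179 brains were all above the vehicle brains for 8 genes, beside 5.71% of all genes, and all below for 0 genes, beside 4.6% of all genes. These 8 were Ctsa, Ctsb, Ctsd, Sgsh, Psap, Becn1, Gabarapl1 and Sqstm1.

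Gabarapl1 had 290, 287 and 279 FPKM in CT-179 brains, against 256, 231 and 249 FPKM in vehicle brains (log2 fold change 0.22 ± 0.08 SE, adjusted p = 0.97). Sqstm1 had 155, 164 and 158 FPKM in CT-179 brains, against 154, 141 and 135 FPKM in vehicle brains (0.15 ± 0.08, adjusted p = 0.97). Psap had 874, 802 and 782 FPKM in CT-179 brains, against 729, 701 and 779 FPKM in vehicle brains. The groups were apart for Gabarapl1, while the nearest libraries of Sqstm1 and Psap almost touched. Ctsd had 294, 274 and 274 FPKM in CT-179 brains, against 266, 255 and 262 FPKM in vehicle brains (0.10 ± 0.08, adjusted p = 0.97). Atp6v1h and Sgsh, next by p, had log2 fold changes of 0.18 ± 0.10 and 0.15 ± 0.08 (adjusted p = 0.97 for both).

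Other genes overlapped between the brain groups. Lamp1 had 309, 329 and 313 FPKM in CT-179 brains, against 317, 275 and 275 FPKM in vehicle brains, and Map1lc3b had 51.1, 58.4 and 56.1 FPKM in CT-179 brains, against 56.8, 51.0 and 47.5 FPKM in vehicle brains. Tfeb had 7.39, 6.10 and 6.54 FPKM in CT-179 brains, against 5.90, 6.03 and 6.86 FPKM in vehicle brains, and Tfe3 had 9.64, 9.87 and 10.1 FPKM in CT-179 brains, against 10.05, 9.87 and 9.29 FPKM in vehicle brains. The spread within each group exceeded the difference between groups for both factors, whose log2 fold changes of 0.08 for Tfeb and 0.02 for Tfe3 fell below 0 under TPM scaling.

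**Figure D5:**
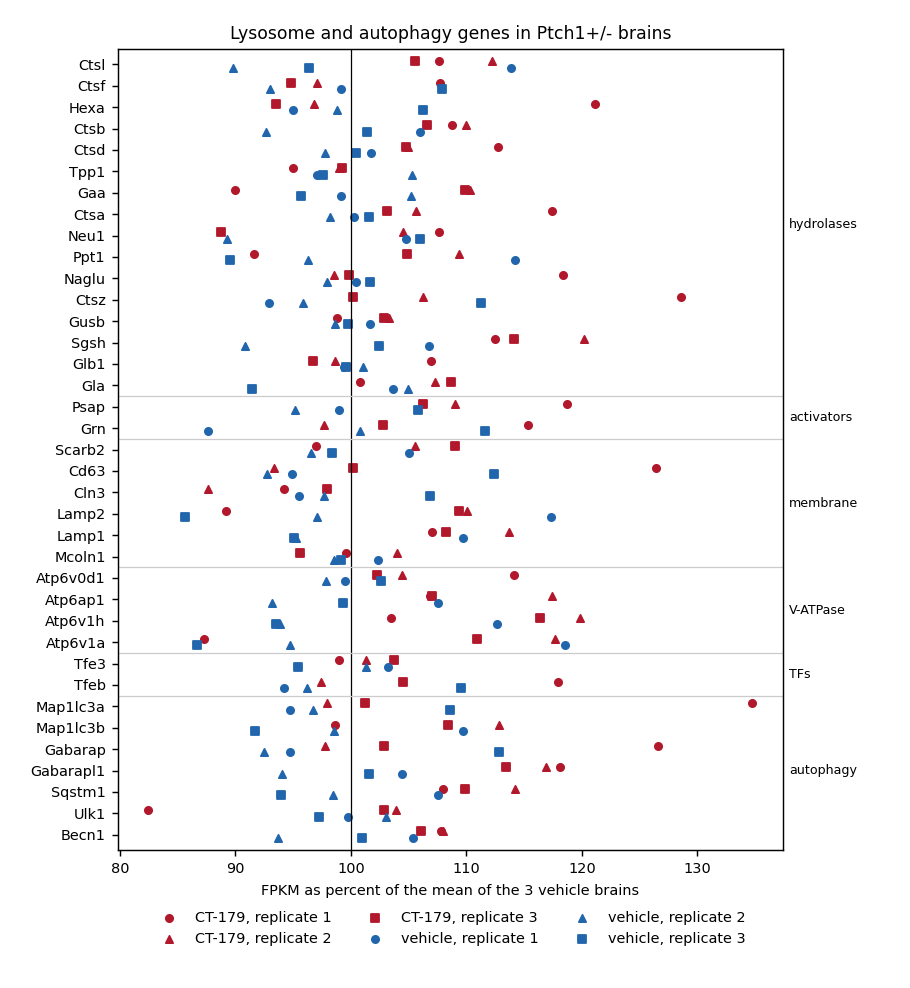
FPKM of each gene in each brain library as a percentage of the mean of the 3 vehicle brains (x axis), with a symbol for each replicate. CT-179 replicate 1 stands apart from the other CT-179 brains for several genes, high for Map1lc3a, Cd63 and Gabarap and low for Ulk1 and Atp6v1a.

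The plot of brain libraries shows single libraries that lay apart from their groups. Map1lc3a had 336, 244 and 252 FPKM in CT-179 brains, against 236, 241 and 271 FPKM in vehicle brains, and Atp6v1a had 67.0, 90.3 and 85.2 FPKM in CT-179 brains, against 91.0, 72.7 and 66.6 FPKM in vehicle brains. The deviation of CT-179 replicate 1 from its group had a Spearman correlation of -0.58 with exonic length over the 37 genes, and that of vehicle replicate 3 of -0.50. For the other brain libraries it was 0.50 and 0.60 in CT-179 replicates 2 and 3, and 0.46 and 0.07 in vehicle replicates 1 and 2. The CT-179 effect in brain also followed gene length. Its Spearman correlation with exonic length was -0.40 over 12367 protein-coding genes and -0.37 over the 37 genes. After a length correction, 0 of the 37 genes passed, beside 0% of all genes, and their median was 0.06, beside 0.0036 over all genes. Without vehicle replicate 2, 0 of the 37 genes passed, beside 0.00754% of all genes, and their median was 0.06. In the authors' deposited table, whose log2 fold change runs vehicle over CT-179 and tracked a ratio of vehicle replicates 1 and 3 to the 3 CT-179 brains (Pearson's r 0.99998 over 12573 genes), 31 of the 37 values were negative and 6 positive, and none had a false discovery rate below 0.05, beside 0.0873% of its genes.

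Oligodendrocyte progenitor markers did not overlap between the brain groups, and the part of cell type markers in these values was not tested. Summed FPKM was 273 to 292 in CT-179 brains and 248 to 251 in vehicle brains for 5 oligodendrocyte progenitor markers, 5169 to 6593 in CT-179 brains and 4825 to 5241 in vehicle brains for 6 myelin markers, and 1400 to 1572 in CT-179 brains and 1294 to 1401 in vehicle brains for 8 astrocyte markers. For 10 microglial markers it was 135 to 186 in CT-179 brains and 143 to 159 in vehicle brains. Of 115 other pathway genes tested in brain, 0 passed, 80 log2 fold changes were above 0 and 35 below, and the median was 0.04.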

How the data were processed

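Per the labels' protocols, RNeasy columns gave the RNA, a SMARTER kit the mRNA libraries, and sequencing was paired-end at 100 bases. The submitters' processing notes name mm10, STAR 2.6.0c as aligner, Trim Galore 0.5.0, HTSeq 0.6.1p2, R 3.6 and the package edgeR 3.28.1, and neither annotation nor strand of counting is given in the sources used here. For each library the authors deposited FPKM by gene. Their brain table adds, per the file headers, its own log2 values (fold change and abundance), the score of a likelihood ratio test, its p-value and a false discovery rate. The cell and brain tables were normalized separately and were tested only within themselves.

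FPKM multiplied by exonic length (GENCODE M21) fell on whole multiples of 1 read, within 0.1 read and up to 20 reads, for 89.1% to 91.2% of low values in cells and 89.8% to 97.7% in brain. The implied depth was 2.23e+07 to 5.34e+07 reads in the cells and 1.27e+07 to 5.00e+07 in the brains, with at least 190 reads (Cln3) and 109 reads (Sgsh) for the lowest of the 37 genes. No count model was run, since the values are FPKM.

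Tests covered genes reaching 1 FPKM in 3 or more libraries, on log2(FPKM + 1), which understates changes of low genes, with limma 3.58.1 in R 4.3.3 (two-sided, moderated variance with a mean trend, Benjamini-Hochberg adjustment over all genes tested, threshold 0.05). Cells (12 libraries, 12510 genes) and brains (6 libraries, 13422 genes) were fitted apart, and all 37 genes passed the filter in both. The fit was tested on simulated data. Promoter windows came from RefSeq (GRCm38.p6), and the capitals mark exact matches.

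The genes and lists were chosen with earlier results of these data known. Per contrast, the rule for named genes took the 8 largest changes among those past the threshold, or the 4 smallest p where fewer than 4 passed, and Tfeb, Tfe3, Lamp1, Ctsd, Sqstm1 and Map1lc3b always. Of the other pathway lists it took up to 2 genes each. Further genes were named after their values were seen, to account for all 37. Deviations of same-numbered CT-179 libraries at 24 h and 144 h correlated at r 0.11 to 0.24. Those of differently numbered ones correlated at -0.24 to 0.15, so the 2 ranges overlapped and do not establish a pairing by number. In each other pair of groups at least 1 same-numbered correlation was below 0.1. Of the 37 genes, 17 share exonic bases with another gene. Alternatives were other pseudocounts, filters, scalings, weights, a length correction, a replicate block and leaving out single libraries. CT-179 replicate 2 at 144 h left out together with TPM scaling was added after seeing the data.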

Additional observations from a re-analysis of the deposited data

Results flagged for a closer look

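Becn1 lay on opposite sides of vehicle in cells at 24 h and in brain. At 24 h it had 17.2, 16.9 and 16.8 FPKM in CT-179 cells, all below the 17.5, 17.4 and 17.4 FPKM of vehicle cells (log2 fold change -0.037), whereas it had 19.7, 19.8 and 19.4 FPKM in CT-179 brains, all above the 19.3, 17.2 and 18.5 FPKM of vehicle brains (0.098, or 0.054 without vehicle replicate 2). At 144 h the groups overlapped, with a mean of 16.5 FPKM in CT-179 cells and in vehicle cells. The difference between cells and brain was not tested, since the tables were normalized separately, and neither change passed on its own.

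The effect of CT-179 on Ctsz differed between 144 h and 24 h when CT-179 replicate 2 at 144 h was left out, by 0.24 on the log2 scale (limma, adjusted p = 0.0258). Ctsz was the 1 gene of the 37 that passed there, beside 2.66% of all genes, so the count was near that of any genes. The remaining CT-179 libraries at 144 h held 65.4 and 67.2 FPKM, against 55.6, 55.6 and 52.6 FPKM in vehicle cells. With all 12 libraries the difference was 0.48 and did not pass.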

How the results depend on the processing

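The change with time held under every alternative run: 30 to 36 of the 37 genes were called in CT-179 cells and 30 to 35 in vehicle cells, and their median log2 fold change stayed between 1.03 and 1.23 in CT-179 cells and between 0.95 and 1.24 in vehicle cells. Under TPM scaling the all-gene median became 0.13 for time in vehicle cells and -0.22 for CT-179 at 144 h, where that of the 37 genes was -0.089, and Glb1 and Sgsh lost their calls for time. Tfeb in vehicle cells lost its call under median-of-ratios scaling (0.35) and a length correction (0.35), and Atp6v1h and Ctsz in CT-179 cells in a fit of those 6 libraries alone.

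The number of genes called between CT-179 and vehicle cells depended on CT-179 replicate 2 at 144 h. With 1 library left out it ranged from 0 to 7 at 144 h and from 0 to 9 at 24 h, and from 0 to 1 for the difference between the times. The highest counts, without replicate 2, stood beside 28.7%, 22.2% and 2.66% of all genes. In the same order, median-of-ratios scaling without replicate 2 gave 14, 19 and 1, beside 33.6%, 29.7% and 2.47% of all genes. Without replicate 2, a length correction gave 6, 13 and 1, beside 23.6%, 16.1% and 3.11%, and TPM scaling 8, 7 and 1, beside 28.0%, 25.5% and 1.39%. Array weights with all libraries gave 16, 11 and 2, beside 47.9%, 26.5% and 9.84%. The length correction with all libraries gave 2 at 144 h, beside 5.81%, and a fit of the 6 libraries at 24 h alone 6, beside 17.4%. In brain no alternative gave a call, and TPM scaling turned the median to -0.0065.

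Small CT-179 effects that did not pass turned sign. Under TPM scaling these were Sqstm1 (-0.011 at 24 h, -0.052 at 144 h, -0.042 for the difference), Gusb (-0.0052), Tfe3 (-0.18) and Lamp1 (-0.14) at 144 h, and Tfeb (-0.0013) and Tfe3 (-0.070) in brain. TPM scaling without replicate 2 gave Sqstm1 -0.011 at 24 h and -0.041 at 144 h, Tfe3 -0.11 and Lamp1 -0.064 at 144 h, and differences of -0.046 for Ctsd and -0.030 for Sqstm1. Tfeb at 24 h became 0.023 by median-of-ratios, 0.0085 by array weights and 0.026 by length correction, and without replicate 2 it became 0.029 by median-of-ratios and 0.027 by length correction. Array weights gave Tfe3 -0.031 and Lamp1 -0.0063 at 144 h, and differences of -0.024 for Ctsd and -0.015 for Sqstm1. The length correction gave Lamp1 -0.064 at 144 h, or -0.032 without replicate 2, and a difference of 0.13 for Tfe3. Without replicate 2, differences were -0.052 by median-of-ratios and -0.058 by length correction for Ctsd, and -0.036 and -0.039 for Sqstm1. With 1 library left out, Tfeb at 24 h ranged from -0.042 to 0.0057, Tfe3 from -0.045 to 0.041 and Lamp1 from -0.0040 to 0.085 at 144 h, Tfe3 in brain from -0.012 to 0.039, and the differences from -0.045 to 0.24 for Ctsd and from -0.029 to 0.15 for Sqstm1. The causes were not tested.

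The replicate block left the counts at 0 for both CT-179 effects in cells, for their difference and for brain, 33 for time in CT-179 cells and 32 for time in vehicle cells, and changed no call of a named gene. With the block, 64.6% of all genes were called for time in CT-179 cells and 65.7% in vehicle cells. For CT-179 it was 2.41% at 144 h and 0.016% at 24 h. The deviations of brain libraries sharing a number correlated at -0.39 to 0.11. FPKM without counts limit what can be said of depth.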
